A study of Mus musculus with 2 samples.

Results

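The genes described here encode the enzymes that oxidise glucose: the steps of glycolysis, the pentose phosphate pathway, the pyruvate dehydrogenase complex with its kinases, and the citrate cycle. Members were the protein-coding rows of the deposited table whose gene symbol matched a list of enzyme names. The 41 genes described were drawn from 10627 rows, of which 9388 were protein-coding. In the GENCODE vM21 gene set the same names find 61 protein-coding genes, and the other 20 were not analysed here. Among these are Gapdh, Cs (citrate synthase), Mdh2, G6pdx (the first enzyme of the pentose phosphate pathway) and Tigar, a p53-induced brake on glycolysis.

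RNA came from Six2-positive nephron progenitor cells, the cap mesenchyme that builds the epithelium of the nephron, which had been isolated by cell sorting from the kidneys of mouse embryos aged 15.5 days. The wild-type group (WT) had the genotype Six2CreGFP+;p53+/+ and the knockout group (KO) the genotype Six2CreGFP+;p53f/f, both on a mixed CD1 and C57BL background. Both groups therefore carried the transgene, in which Six2 sequences drive Cre recombinase and GFP. The labels do not give the number of embryos behind each RNA sample. There was 1 library per genotype, so no difference below has a replicate check and no test was made.

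Values are read densities that behave as RPKM, a read count scaled to gene length and sequencing depth, so levels can be set side by side between genes. A difference is log2(KO + 1) minus log2(WT + 1), which understates the change of genes with low densities. Genes with a mean density of at least 7.30 RPKM, the middle of all listed genes, were taken as over the floor; 33 members were over it and 8 under it. The table holds only genes with a corrected p-value under 0.05 in the authors' comparison of the 2 libraries. A member had to differ to be listed, so counts over members describe the listed genes and support nothing by themselves. Members over the floor had a median of 10341 estimated reads in WT and 8338 in KO, and the 95% exact intervals given for ratios cover counting error only. The same filter selects ratios whose interval leaves out 1, so an interval that does so supports nothing by itself. Trp53, the deleted gene, was at 33.9 RPKM in WT against 5.38 RPKM in KO, and Six2 was at 482 and 509 RPKM.

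Glycolysis splits glucose into pyruvate and yields ATP without oxygen, and lactate dehydrogenase regenerates the NAD that it needs. Pyruvate enters the citrate cycle in mitochondria through the pyruvate dehydrogenase complex, which the pyruvate dehydrogenase kinases switch off, while the pentose phosphate pathway draws off glucose 6-phosphate for NADPH and ribose. Nephron progenitors are known to rely on glycolysis, and mature proximal tubules on mitochondrial oxidation and gluconeogenesis. p53 is known to act on several of these steps in other cells.

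Markers of other cell types that a sort could hold were lower in KO beside these genes. All 10 listed of 16 erythroid markers were lower, with a summed density of 633 RPKM in WT against 23.9 RPKM in KO and Hba-x at 0 in KO. All 10 of 12 leukocyte markers were lower (17.0 and 2.77 RPKM summed), all 10 endothelial markers (18.1 and 7.12 RPKM), all 10 stromal markers (209 and 80.3 RPKM) and all 10 ureteric bud markers (60.6 and 45.7 RPKM), with none at 0. All 10 nephron progenitor markers were listed, 4 higher and 6 lower, with a summed density of 1068 RPKM in WT against 1106 RPKM in KO and none at 0. Their median difference was -0.087, while the sum weighs high-density genes such as Six2 most. Of all listed genes 63.9% were lower without the floor and 55.8% over it. In RNA from a sorted population, fewer cells of a type and less RNA per cell cannot be told apart. Red cells and macrophages also express glycolytic genes, and the part of these cells in the members' differences was not tested.

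Most members were slightly lower in the KO library, and none of the 41 differed by 1.5-fold on the scale with the pseudocount. KO had the lower density for 27 of the 33 members over the floor and the higher density for 6. Of the 5309 listed genes over the floor, 55.8% were lower and 44.2% higher, and of the protein-coding ones among them 55.6% were lower. A KO density at least 1.5-fold lower was seen in 2.41% of these listed genes (2.57% of the protein-coding ones). No member was at least 1.5-fold higher either, where 0.659% were (0.502% of the protein-coding ones). The median difference was -0.14 over these members and -0.072 over all listed genes over the floor. Over the floor the differences ran from -0.52 (Tpi1) to 0.30 (Dld). With a smaller size rule, a KO/WT ratio of 0.8 or less on the scale with the pseudocount, 4 members over the floor were lower, namely Tpi1, Ldhb, Idh1 and Pdk1, and none over the floor was higher by the inverse, where 7.33% of listed genes over the floor were lower by that size and 5.07% higher. Under the floor Aldoc was lower and Pdk4 higher by that size. Without the floor, 34 of 41 members were lower, where 63.9% of all listed genes were. Under the floor, Hk3, Aldoc and Pdk4 passed 1.5-fold on the plain ratio of densities only.

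**Figure D1:**
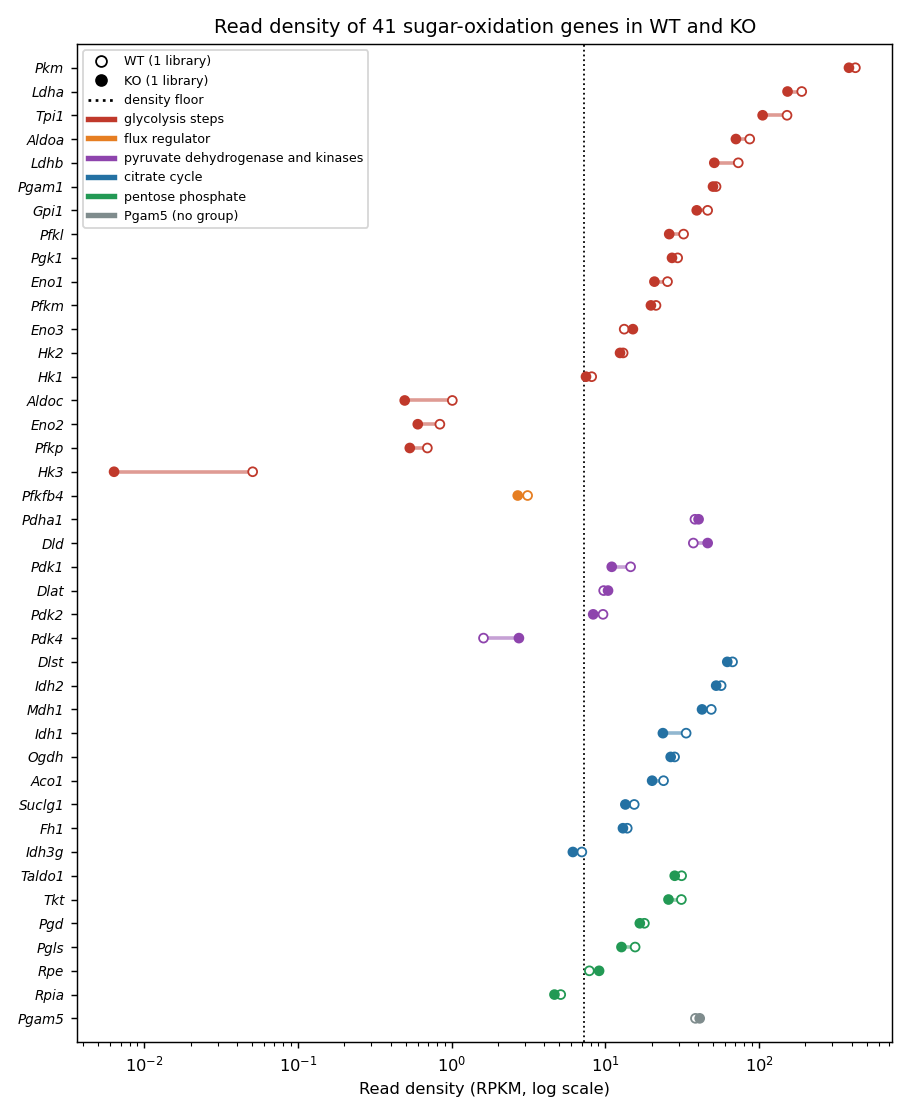
Read density in RPKM (log scale) of the 41 members in WT (open circles) and KO (filled circles), 1 library each, grouped by role and ordered by the WT density. Most filled circles lie just left of the open ones, Pkm lies farthest right at 423 and 384 RPKM, and the dotted line marks the floor of 7.30 RPKM.

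The order of levels was nearly the same in both libraries. Pkm, pyruvate kinase of proliferating and muscle cells, was the most abundant member at 423 RPKM in WT against 384 RPKM in KO. It took 24.5% of the summed density of all members in WT and 25.5% in KO. Ldha, Tpi1 and Aldoa followed it, in this order, in both libraries. Ldhb stood at rank 5 in WT and rank 7 in KO, behind Dlst and Idh2 of the mitochondria. The summed density of all 41 members was 1724 RPKM in WT against 1503 RPKM in KO.

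Hexokinase, which traps glucose in the cell as glucose 6-phosphate, differed little. Hk2, the inducible form, was at 13.0 RPKM in WT against 12.4 RPKM in KO, and Hk1, the housekeeping form, at 8.13 and 7.47 RPKM. The difference of Hk2, -0.062, turned to 0.0098 when both libraries were centred on the median difference of all listed genes over the floor. Hk3 was close to absent, with about 17 reads in WT against 2 in KO and a KO/WT ratio of 0.125 (95% interval 0.0140 to 0.528). Gpi1, which isomerises glucose 6-phosphate to fructose 6-phosphate, was at 46.2 RPKM in WT against 39.2 RPKM in KO. An antisense lincRNA, Gm26762, overlaps 11.5% of its exon bases.

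Phosphofructokinase, the committed step of glycolysis, was carried by the liver and muscle forms. Pfkl, the liver form, was at 32.2 RPKM in WT against 26.0 RPKM in KO, with a KO/WT ratio of 0.806 (95% interval 0.789 to 0.823). Pfkm, the muscle form, was at 21.3 and 19.8 RPKM, with a KO/WT ratio of 0.927 (95% interval 0.894 to 0.961). These intervals cover counting error only, and a difference between the forms was not tested. Pfkp, the platelet form, was at 0.693 and 0.533 RPKM. Pfkfb4, a bifunctional enzyme that sets the level of the phosphofructokinase activator fructose 2,6-bisphosphate, was under the floor at 3.11 RPKM in WT against 2.69 RPKM in KO.

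Aldolase splits fructose 1,6-bisphosphate into the triose phosphates. Aldoa, the form of muscle and of most growing cells, was at 86.8 RPKM in WT against 70.6 RPKM in KO, a log2 difference of -0.29. Its KO/WT ratio was 0.813 (95% interval 0.797 to 0.829). Aldoc, the form best known from brain, was low in both libraries at 1.01 and 0.494 RPKM. Its ratio of 0.490 (95% interval 0.398 to 0.601) rests on 300 reads in WT and 138 in KO.

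Genes of gluconeogenesis, the synthesis of glucose that runs many of these steps backwards, are no members and included low-density genes that were far lower in KO. Of 54 names on a list of further genes of glucose metabolism 38 were listed in the table, 24 of them over the floor. Of these 24, 16 were lower in KO and 8 higher (median -0.088). Of all listed genes over the floor 55.8% were lower (median -0.072). After centring 13 of the 24 were lower, where 50% of listed genes over the floor were. From the list of further genes Fbp1, fructose bisphosphatase, was at 2.93 RPKM in WT against 0.0343 RPKM in KO. Pck1, the cytosolic phosphoenolpyruvate carboxykinase of liver and proximal tubule, was at 3.34 and 0.225 RPKM. Gpd1, cytosolic glycerol 3-phosphate dehydrogenase, was at 4.56 and 2.13 RPKM. These 3 had the largest differences on that list on the log2 scale with the pseudocount, and lie under the floor. On the plain ratio of densities 2 other genes under the floor were further from 1 than Gpd1 (0.466). They were Pklr, a further pyruvate kinase gene, with a KO/WT ratio of 0.114, and Fbp2 with 0.165. The mitochondrial form Pck2 was at 13.6 and 10.8 RPKM and pyruvate carboxylase, Pcx, at 15.4 and 12.8 RPKM. Markers of differentiated nephron were lower beside them: all 7 listed of 8, with a summed density of 45.7 RPKM in WT against 5.86 RPKM in KO and none at 0. Without the floor 63.9% of all listed genes were lower. The part of tubule cells in the differences of Fbp1 and Pck1 was not tested.

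Triosephosphate isomerase had the largest difference among members over the floor on the deposited densities. Tpi1 was at 152 RPKM in WT against 105 RPKM in KO, with a KO/WT ratio of 0.694 (95% interval 0.683 to 0.705), and lies on chromosome 6 from 124810586 to 124814296, minus strand. Its log2 difference was -0.52, and -0.44 once corrected for gene length and GC content as described below, where Idh1 (-0.68) and Pdk1 (-0.55) lay further from 0. Pgk1, phosphoglycerate kinase, which makes the first ATP of the pathway, was at 29.5 RPKM in WT against 27.1 RPKM in KO. Pgam1, phosphoglycerate mutase, was at 52.4 and 50.1 RPKM, a difference of -0.064 that turned to 0.022 after the correction and to 0.0072 after centring.

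Copies of members were listed in the same table with densities of their own. Pgam1-ps2, a pseudogene, stood at 148 RPKM in WT against 136 RPKM in KO, above Pgam1 itself. Ldha-ps2 was at 72.5 and 65.4 RPKM, and the Aldoa retrogenes Aldoart1 and Aldoart2 were at 43.4 and 35.9 RPKM and at 15.2 and 13.1 RPKM. How reads that align to several places were counted is not given in the sources used here, so the levels of Aldoa, Ldha, Pgam1, Tpi1, Eno1, Pgk1 and Pkm are uncertain. Without these 7 genes, which are known to have processed copies, the median over the other 26 members over the floor was -0.11.

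Enolase showed opposite directions among its forms. Eno1, the form found in most tissues, was at 25.3 RPKM in WT against 20.8 RPKM in KO. Eno3, the muscle form, was at 13.2 and 15.1 RPKM, with a KO/WT ratio of 1.14 (95% interval 1.07 to 1.21), and was the only glycolysis gene that was higher in KO on the deposited densities. Eno3 made up 33.6% of the summed enolase density in WT and 41.3% in KO. Eno2, the neuronal form, was at 0.836 and 0.601 RPKM. Pkm, which makes pyruvate, had a ratio of 0.908 (95% exact interval 0.902 to 0.914), a small difference measured on the largest number of reads of any member.

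Lactate dehydrogenase was lower in KO in both of its subunits. Ldha, the subunit that favours the making of lactate, was at 189 RPKM in WT against 153 RPKM in KO, with a KO/WT ratio of 0.808 (95% interval 0.798 to 0.819). Ldhb, the subunit that favours the use of lactate, was at 73.1 and 51.1 RPKM, with a KO/WT ratio of 0.698 (95% interval 0.677 to 0.720). The summed density of both genes was 262 RPKM in WT against 204 RPKM in KO, of which Ldhb made up 27.9% in WT. A difference between the subunits was not tested. Ldha lies on chromosome 7 from 46841475 to 46855627, plus strand, and Ldhb on chromosome 6 from 142490249 to 142507957, minus strand. Of the 14 glycolysis genes over the floor 13 were lower in KO, with a median of -0.18, and of all 18 described 17 were lower. Of all listed genes 55.8% over the floor and 63.9% without it were lower. Their median GC content was 54.0%, and of listed genes in the group of like GC content (52.2% to 56.1%) 77.8% were lower. After centring 11 of the 14 were lower, and after the correction 12, where 50% and 72.1% of listed genes over the floor were.

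**Figure D2:**
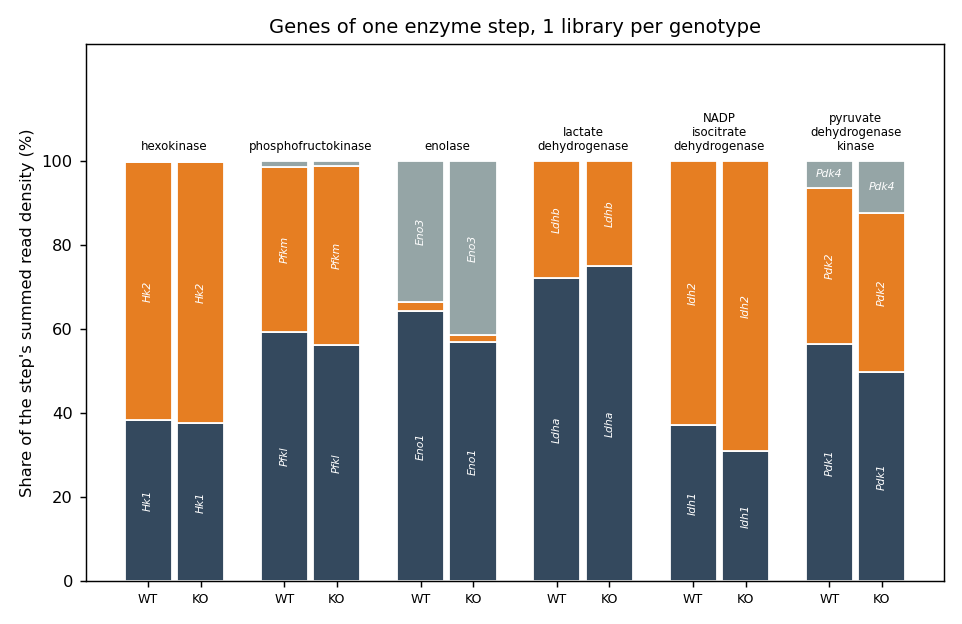
Share in percent of the summed read density taken by each gene of an enzyme step, in WT and KO, 1 library each. The Eno3 share grows from 33.6% to 41.3% and the Pdk4 share from 6.23% to 12.4%, while hexokinase and lactate dehydrogenase shares move by under 3 percentage points.

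The sequences before the starts of Tpi1, Ldhb, Ldha and Pdk1 are shown because these members are among those lower together, and because Ldha and Pdk1 are textbook targets of hypoxia-inducible factor. They are RefSeq sequences of GRCm38.p6, the build of the files, and cover the 250 bases before an annotated start, 5′ to 3′ on the gene's strand. The windows are chr7:46845554-46845803 (plus strand) for Ldha, chr2:71872974-71873223 (plus strand) for Pdk1, chr6:142507958-142508207 (minus strand) for Ldhb and chr6:124814159-124814408 (minus strand) for Tpi1. The starts used for Ldha and Tpi1 lie inside the intervals of these genes in the deposited table. The whole Ldha window and the part of the Tpi1 window up to 124814296 therefore lie within the deposited genes. Capitals mark the hypoxia response core, ACGTG or GCGTG, searched on both strands; it also lies inside the E-box CACGTG, which Myc proteins bind.
Ldha: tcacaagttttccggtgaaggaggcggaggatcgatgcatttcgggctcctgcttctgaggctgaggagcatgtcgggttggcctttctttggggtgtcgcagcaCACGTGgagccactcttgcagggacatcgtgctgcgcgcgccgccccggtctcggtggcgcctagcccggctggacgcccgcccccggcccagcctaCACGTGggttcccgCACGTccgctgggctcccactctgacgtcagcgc
Pdk1: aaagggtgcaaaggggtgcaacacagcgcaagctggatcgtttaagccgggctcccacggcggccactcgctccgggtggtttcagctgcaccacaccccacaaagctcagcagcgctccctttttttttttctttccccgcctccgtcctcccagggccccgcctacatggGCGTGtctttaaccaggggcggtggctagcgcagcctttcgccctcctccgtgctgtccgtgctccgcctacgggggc
Ldhb: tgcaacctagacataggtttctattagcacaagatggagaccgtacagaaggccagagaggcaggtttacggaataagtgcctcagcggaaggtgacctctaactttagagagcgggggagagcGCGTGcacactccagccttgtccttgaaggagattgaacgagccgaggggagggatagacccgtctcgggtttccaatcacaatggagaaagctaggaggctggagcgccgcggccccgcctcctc
Tpi1: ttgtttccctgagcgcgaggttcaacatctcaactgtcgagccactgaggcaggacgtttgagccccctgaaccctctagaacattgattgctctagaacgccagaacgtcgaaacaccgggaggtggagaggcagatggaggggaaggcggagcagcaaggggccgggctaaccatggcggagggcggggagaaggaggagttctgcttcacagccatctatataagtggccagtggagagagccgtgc
The Ldha window holds 3 such stretches, 2 of them in a CACGTG, the Pdk1 and Ldhb windows hold 1 each, and the Tpi1 window holds none. RefSeq gives a second start for Ldha and for Pdk1; the window before that of Ldha holds 1 stretch and no CACGTG, and the window before that of Pdk1 holds none. Of the 41 members, 40 matched a RefSeq promoter by symbol, all but Pgam5. In 32 of these 40 (80.0%) at least 1 window held the core, against 65.0% of 3541 listed genes over the floor and 41.5% of all 27025 genes with an entry. The 40 include the 8 members under the floor, whereas the 3541 listed genes are all over it, so these sets are not alike in level. Nor were they matched for base composition or number of annotated starts. The core did not follow direction: it was also found in Eno3, Pdha1 and Pdk4, which were higher in KO. Members without it were lower (Aco1, Dlst, Eno2, Gpi1 and Tpi1) or higher (Dlat, Dld and Rpe). CACGTG was found in 4 of the 40 (Ldha, Ogdh, Pdk2 and Pfkm), against 11.0% of the listed genes and 6.86% of all. The p53 half-site was found in 1, Pgam1, against 7.14% and 8.2%, and GTTAAT, a half-site of the tubule factor HNF1, in 1, Pdha1, against 4.38% and 7.49%. A match describes letters and is no evidence of binding.

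The pyruvate dehydrogenase complex and its kinases did not share a direction. Dld, the dihydrolipoamide dehydrogenase that also serves the oxoglutarate complex, was at 37.3 RPKM in WT against 46.2 RPKM in KO, the highest difference over the floor on the deposited densities at 0.30 on the log2 scale. It lies on chromosome 12 from 31331564 to 31351437, minus strand. Pdha1, the catalytic subunit of the complex, was at 38.2 and 40.4 RPKM, and Dlat, its acetyltransferase, at 9.73 and 10.4 RPKM. The 603 bases that Pdha1 shares with the opposite-strand gene Map3k15 make up 16.1% of its exons. All 3 subunits described were slightly higher in KO on the deposited densities, where 44.2% of listed genes over the floor were. Among listed genes of like GC content most were higher. Only 12.4% were lower in the group of Dld and 39.4% in that of Pdha1 and Dlat. The complex also has Pdhb and Pdhx, which were not analysed here. Once corrected, Pdha1 and Dlat turned to -0.076 and -0.065, and Dld stood at 0.076, below Eno3 (0.27) and Pgam5 (0.10).

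Among the kinases, Pdk1 was lower and Pdk4 higher. Pdk1, which hypoxia is known to induce, was at 14.6 RPKM in WT against 11.0 RPKM in KO, with a KO/WT ratio of 0.754 (95% interval 0.731 to 0.777). Pdk2 was at 9.64 and 8.32 RPKM. Pdk4, known as the kinase of fasting and fat oxidation, was under the floor at 1.61 RPKM in WT against 2.73 RPKM in KO, with an estimated 515 and 822 reads and a ratio of 1.70 (95% exact interval 1.52 to 1.90). Its difference of 0.52 on the log2 scale was the most positive of all 41 members, and 0.37 after the correction. Pdk1 stood at -0.38, and at -0.55 after the correction. Pdk4 lies on chromosome 6 from 5483351 to 5496309 and Pdk1 on chromosome 2 from 71873224 to 71903858.

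All 9 genes of the citrate cycle and related dehydrogenases described were lower in KO, 8 of them over the floor with a median of -0.15, and all 9 stayed lower after centring and after the correction. Of all listed genes over the floor 55.8% were lower, after centring 50% and after the correction 72.1%. The largest difference was that of a cytosolic enzyme. Idh1, which makes NADPH from isocitrate in the cytosol, was at 33.5 RPKM in WT against 23.6 RPKM in KO, with a KO/WT ratio of 0.706 (95% interval 0.682 to 0.730). After the correction its difference went from -0.49 to -0.68, past 1.5-fold. Its mitochondrial counterpart Idh2 was at 56.6 and 52.5 RPKM, with a KO/WT ratio of 0.928 (95% interval 0.905 to 0.952). Idh1 made up 37.2% of the sum of these genes in WT and 31.0% in KO. Idh1 lies on chromosome 1 from 65158616 to 65186479, minus strand.

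Other cytosolic enzymes grouped here were lower as well. Aco1, the cytosolic aconitase that doubles as the iron regulatory protein, was at 23.9 RPKM in WT against 20.1 RPKM in KO. Its ratio was 0.843 (95% exact interval 0.818 to 0.868). Mdh1, the cytosolic malate dehydrogenase of the malate-aspartate shuttle, was at 48.8 and 42.5 RPKM, a ratio of 0.870.

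The mitochondrial enzymes of the cycle were lower by small amounts. Dlst, the succinyltransferase of the oxoglutarate complex, was at 67.1 RPKM in WT against 62.0 RPKM in KO, and Ogdh, its dehydrogenase, at 28.2 and 26.6 RPKM. Suclg1, a subunit of succinyl-CoA ligase, was at 15.4 and 13.5 RPKM, and Fh1, fumarase, at 13.9 and 13.0 RPKM. Idh3g, the regulatory subunit of the NAD-linked isocitrate dehydrogenase, was under the floor at 7.02 and 6.13 RPKM. Each of these ratios lay between 0.874 and 0.943, next to 0.870 for the cytosolic Mdh1. After the correction Suclg1 stood at -0.33 and Dlst at -0.25, next to -0.22 for the cytosolic Aco1, and no difference between the compartments was tested.

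In the pentose phosphate pathway 5 of 6 listed genes were lower in KO. Over the floor 4 of 5 were lower, with a median of -0.14. With so few genes these counts lie near the share of all listed genes, of which 63.9% were lower without the floor and 55.8% over it. Pgd, which makes NADPH in the oxidative branch, was at 17.9 RPKM in WT against 16.7 RPKM in KO. Pgls, the lactonase before it, was at 15.6 and 12.7 RPKM, and 20.6% of its exon bases lie in the same-strand gene Fam129c. Of the non-oxidative branch, which returns carbon to glycolysis, transketolase (Tkt) was at 31.2 and 25.7 RPKM and transaldolase (Taldo1) at 31.3 and 28.2 RPKM. The ratio was 0.824 (95% exact interval 0.808 to 0.841) for Tkt and 0.902 (95% exact interval 0.869 to 0.936) for Taldo1. Rpia, which makes ribose 5-phosphate, was under the floor at 5.11 and 4.66 RPKM.

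Rpe, the epimerase of ribulose 5-phosphate, was the exception, at 7.86 RPKM in WT against 9.09 RPKM in KO. After the correction its difference went from 0.19 to -0.039. The opposite-strand gene Kansl1l covers 17.9% of its exon bases. Pgam5, which the name pattern found but which is a mitochondrial protein phosphatase and no enzyme of glycolysis, was at 38.5 and 41.0 RPKM. A lincRNA on the other strand, Gm26718, overlaps 58.1% of its exon bases, and the strand used in counting is not given in the sources used here.

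**Figure D3:**
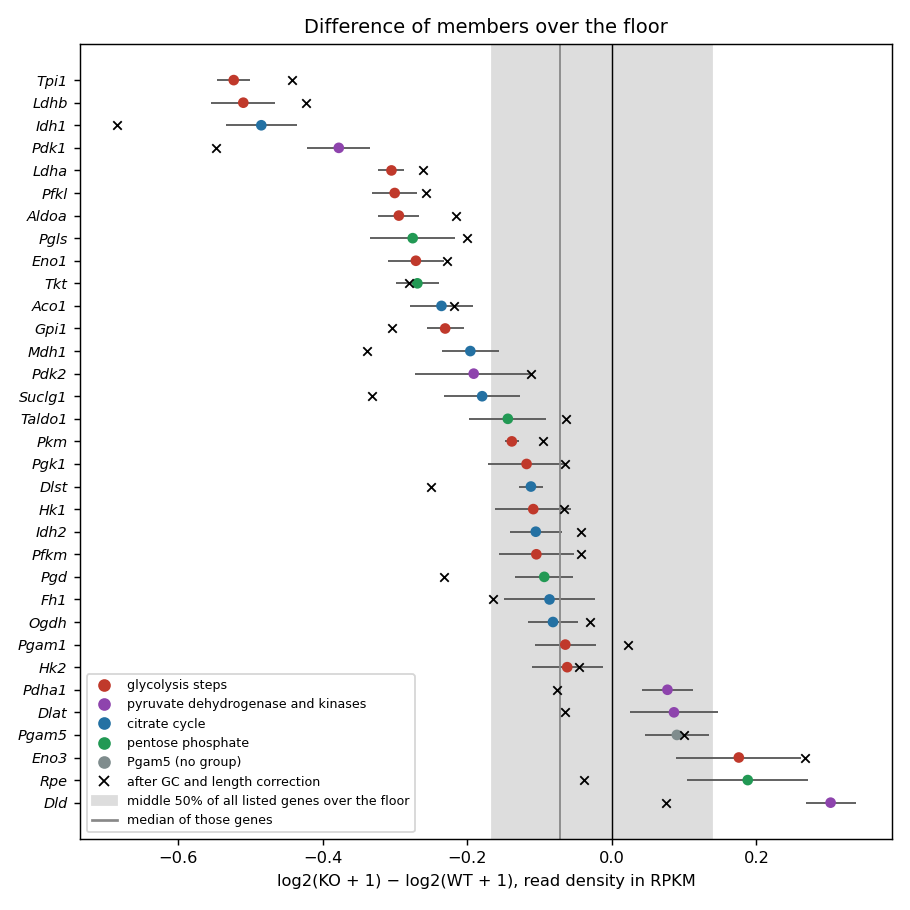
Difference log2(KO + 1) minus log2(WT + 1) of the 33 members over the floor, coloured by role; bars are 95% exact counting intervals of the density ratio drawn around each point. Crosses show the value after correction for GC content and gene length, and the grey band the middle 50% of all listed genes over the floor, from -0.17 to 0.14.

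The difference between the libraries moved with base composition, and the members did so in part. The GC content of a gene and its difference had a Spearman's rho of -0.52 across 5263 listed genes over the floor and of -0.31 across the 33 members; the points share their libraries, so no test is given. The 3 pyruvate dehydrogenase subunits that were higher in KO, and Rpe, lie at 39.2% to 47.2% GC, where listed genes were mostly higher. Genes over the floor were split into 5 equal groups by GC content. In the group with the lowest GC content the median of all listed genes was 0.17 and 12.4% were lower in KO. Of the 3 members there, Idh1 was lower and Dld and Rpe higher. In the next group, where 39.4% of listed genes were lower, 4 of 6 members were lower, namely Fh1, Mdh1, Pdk1 and Suclg1. In the group with the highest GC content all 7 members were lower, where 87.9% of listed genes were.

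The correction subtracted from each gene the median difference of genes alike in GC content and length and added back the median of all genes. After it 29 of the 33 members were lower, where 72.1% of listed genes over the floor were, and the members' median was -0.17. Idh1 alone was then at least 1.5-fold lower, where 2.24% of listed genes were. After centring 25 of 33 were lower, where 50% of listed genes were, with a median of -0.067. With the authors' scaling, by which KO densities are multiplied by 1.04, 27 were lower, where 53.4% of listed genes were. In all, 25 members were lower and 3 (Dld, Eno3 and Pgam5) higher under each of these 4 scales, and Hk2, Pgam1, Dlat, Pdha1 and Rpe turned under at least 1.

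**Figure D4:**
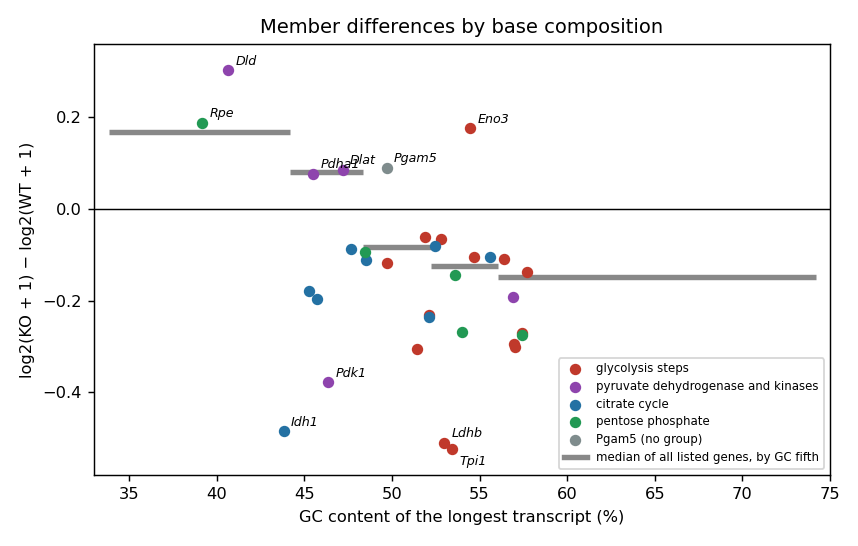
Difference of the 33 members over the floor against the GC content of the longest transcript, coloured by role, with grey lines for the median of all listed genes in each of 5 equal groups by GC content. Rpe lies near the line of the lowest group at 0.17, and Dld at 0.30 lies above it. Idh1 at -0.49 and Pdk1 at -0.38 lie far below the lines at their GC content, and Tpi1 and Ldhb below theirs.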

How the data were processed

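Each RNA sample was sequenced as 1 library, WT and KO. The submitters' processing notes name 3 tools without their role (CASAVA 1.8, Novoalign 2.08.02, FastQC) and GRCm38, also as mm10. The values deposited for each library are a density per the file headers, read here as RPKM. This reading comes from the values: of 149 genes at 0 in KO and 70 at 0 in WT whose deposited fold lay within 0.01 of a whole number of reads, 99 of the 148 with a gene model and 48 of 67 gave the same depth within 0.5%. The implied depths are about 91200000 reads (WT) and 85600000 reads (KO), so estimated reads are approximate. The authors also deposited a p-value, a corrected p-value (largest 0.0499827), a fold ratio, and the fold change again as a score whose sign gives the direction. The deposited ratio is the density ratio times 1.04.

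Differences used a pseudocount of 1, and for 8 repeated symbols the row of higher mean density was kept. GC content, length and overlaps came from GENCODE vM21, whose models overlap the deposited coordinates of all 41 members. The correction used 10 GC bins and 4 length bins. Ratio intervals are exact (Clopper-Pearson) at 95%, conditional on the summed reads. Analyses ran in Python 3.11.15 with scipy 1.17.1 and pandas 2.3.3, and were tested on simulated data. The rule finds 43 genes, of which 2 are not reported here and are left out of every count over members. Those past 1.5-fold, the 3 lowest and 3 highest over the floor and the genes of shared enzyme steps are given in full, as are the 3 pathway genes outside the list with the largest differences. Further pathway genes and the copies of members were chosen after their values were seen. The members and lists were chosen with earlier results of these data known.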

Additional observations from a re-analysis of the deposited data

How the results depend on the processing

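All alternatives tried were planned, and all planned ones were run. The members' median of -0.14 was -0.20 with a higher floor, the 75th percentile (20.75 RPKM), -0.067 after centring and -0.081 with the authors' scaling. Under the other alternatives it ran from -0.17 to -0.11. The glycolysis median of -0.18 was -0.28 with the higher floor, -0.11 after centring, -0.13 with the authors' scaling and -0.16 after the correction for length and GC content. The pyruvate dehydrogenase median of 0.077 reversed to -0.076 after the correction, and was 0.19, 0.15 and 0.13 with the higher floor, centring and the authors' scaling. The citrate cycle median of -0.15 was -0.074 after centring, -0.091 with the authors' scaling and -0.23 after the correction. The pentose phosphate median of -0.14 was -0.21 with the higher floor, -0.072 after centring, -0.089 with the authors' scaling and -0.20 after the correction. With the higher floor 18 of 21 members were lower. The share of all listed genes was not taken at that floor, so this count has no comparison. The count at least 1.5-fold lower, 0 in the main analysis, was 1 after the correction (Idh1) and 4 with the size rule of a ratio of 0.8. The Trp53 difference of -2.45 was -2.60 with a pseudocount of 0.25, -2.02 with one of 4 and -2.38 after centring. Of 205 differences of single members, 117 stayed within their counting interval, 88 moved beyond it and 8 changed sign, in Dlat, Hk2, Hk3, Pdha1, Pgam1 and Rpe; none of these 6 was past 1.5-fold on the log2 scale with the pseudocount. No paired analysis was possible because there is 1 library per genotype. Depth limits the members under the floor most, Hk3 above all.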

Other observations

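Genes that bring sugar and its products across membranes showed small differences of both signs. Slc16a1, a lactate and pyruvate transporter, was at 42.7 RPKM in WT against 50.5 RPKM in KO, and Slc16a3, the exporter of glycolytic cells, at 12.7 and 10.5 RPKM. The difference of Slc16a1, 0.24, was 0.0093 once corrected for length and GC content. Bsg, their chaperone basigin, was at 91.1 and 82.4 RPKM, and Slc2a3, a glucose transporter, at 1.03 and 0.783 RPKM. All 5 listed genes of succinate dehydrogenase and its assembly, the citrate cycle enzyme outside the list of members, were lower in KO by small amounts (median -0.087), such as Sdha at 49.6 and 44.4 RPKM. After centring 3 of these 5 were lower. Of all listed genes over the floor 55.8% were lower (median -0.072), and 50% after centring, so these 5 genes lie close to them.

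Of 9 listed regulators of these genes 6 were lower in KO, where 63.9% of all listed genes were. Over the floor 3 of 6 were lower, where 55.8% of listed genes were. Those higher were Hif1a, Myc and Mycn, which are known to induce glycolytic genes. Hif1a, the oxygen-regulated subunit of hypoxia-inducible factor, was at 19.8 RPKM in WT against 25.5 RPKM in KO, and Myc was at 27.5 and 33.5 RPKM. After the correction the difference of Hif1a went from 0.35 to 0.087 and that of Myc from 0.28 to 0.36. H6pd, the pentose phosphate enzyme of the endoplasmic reticulum, was at 12.5 and 8.32 RPKM, and Pgm2, a phosphoglucomutase, at 11.0 and 6.80 RPKM, with a KO/WT ratio of 0.620 (95% interval 0.584 to 0.658). On the log2 scale with the pseudocount Pgm2 was the only one of the 24 pathway genes outside the members over the floor that was at least 1.5-fold lower, where 2.41% of listed genes over the floor were, and its difference of -0.62 fell short of 1.5-fold after centring (-0.55) and with the authors' scaling (-0.57).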
